A study of Homo sapiens with 112 samples.

Results

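The genes described here are 10 members of the insulin-like growth factor (IGF) receptor axis. They are the ligand IGF1, the receptors IGF1R, INSR and IGF2R, the binding proteins IGFBP2, IGFBP3, IGFBP4 and IGFBP5, and the adaptors IRS1 and IRS2. The 10 genes were taken by symbol from the 58684 genes listed in the table. That rule used no measured value, but the symbols were chosen with earlier results of these data known. RNA was sequenced from VCaP and LAPC4, established lines of prostate cancer cells with a working response to androgen. Before treatment, all cells had spent 2 days in medium with 10% charcoal-stripped serum, which is poor in steroid hormones. Each line then received either DMSO vehicle, 1 nM R1881 (a synthetic androgen), 1 nM R1881 with 500 nM darolutamide, or 1 nM R1881 with 2 µM darolutamide, for 8 or 22 h. Darolutamide is an antiandrogen drug. The 16 groups held 4 to 10 libraries each, 55 from VCaP and 57 from LAPC4, with 12188455 to 25201678 reads counted in genes per library. The study's methods call the replicates of a condition biological but state fewer of them than the 7 to 10 libraries that the DMSO and R1881 groups hold here. The sample labels do not say which libraries came from separate cultures, so p-values measure only the spread between these libraries, part of which may be technical. Each line is a single established culture, so every group is a model of 1 cell line.

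IGF1 is a secreted growth factor that binds IGF1R, a receptor tyrosine kinase, and the related insulin receptor INSR. The activated receptors phosphorylate the adaptor proteins IRS1 and IRS2, which recruit phosphoinositide 3-kinase and thereby activate AKT. IGF2R, a receptor without kinase activity, takes up IGF2 for degradation in lysosomes and also sorts lysosomal enzymes. The IGF-binding proteins are secreted, hold IGFs outside the cell and can either limit or prolong their action, and proteases release the ligand by cutting them. In the prostate, IGF signalling is known as a growth and survival input to epithelial cells.

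The promoters of 3 members are shown because these genes had the largest or most distinct changes described below. Each is the 250 bases before the annotated start, 5′ to 3′, from RefSeq (GRCh38.p14), in lower case.
IGF1R (chr15:98648289-98648538, plus strand): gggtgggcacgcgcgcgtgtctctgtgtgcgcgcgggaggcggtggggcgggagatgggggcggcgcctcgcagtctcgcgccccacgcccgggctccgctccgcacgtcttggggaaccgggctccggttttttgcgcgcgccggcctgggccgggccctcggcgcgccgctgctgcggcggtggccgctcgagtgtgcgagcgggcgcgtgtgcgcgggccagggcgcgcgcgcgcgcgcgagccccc
IGFBP3 (chr7:45921273-45921522, minus strand): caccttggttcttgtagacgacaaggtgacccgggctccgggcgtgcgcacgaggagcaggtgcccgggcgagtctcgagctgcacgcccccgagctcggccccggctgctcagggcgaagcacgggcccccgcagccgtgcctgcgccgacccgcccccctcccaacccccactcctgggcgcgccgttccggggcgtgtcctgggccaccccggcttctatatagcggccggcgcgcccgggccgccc
IGFBP5 (chr2:216695550-216695799, minus strand): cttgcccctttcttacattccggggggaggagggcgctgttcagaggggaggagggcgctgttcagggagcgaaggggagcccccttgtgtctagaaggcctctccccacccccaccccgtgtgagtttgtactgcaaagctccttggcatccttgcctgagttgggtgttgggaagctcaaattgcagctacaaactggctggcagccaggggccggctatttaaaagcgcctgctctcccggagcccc
All 10 members had an entry, with 13 starts in all. The windows of IGF1R, IGFBP3 and IGFBP5 hold 81.2%, 76.0% and 61.2% GC, beside a median of 58.0% over 35116 promoters of the same length. IGFBP2 and IGFBP5 are neighbours on opposite strands, 7669 bases apart.

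Levels are given in CPM, a gene's reads relative to its library's total after scaling by edgeR's TMM factors. A gene was called in a comparison where edgeR's quasi-likelihood test gave a Benjamini-Hochberg adjusted p under 0.05 over all genes tested in the line, 19266 in VCaP and 18204 in LAPC4. All 10 members were tested in VCaP, but IGF1 reached 10 reads there only in R1881 libraries at 8 h. In LAPC4, IGFBP4 and IRS2 did not reach the minimum of 10 reads in at least 4 libraries, so 8 were tested. The labels held up on the check genes. R1881 at 22 h raised KLK3 and FKBP5, which are known to respond to androgen, by 3.44 and 5.49 log2 units in VCaP and by 1.65 and 1.36 in LAPC4, and ERG had 1578 to 21554 reads per library in VCaP and 0 or 1 in LAPC4. Summed leukocyte markers (PTPRC, CD3E and LYZ) did not exceed 0.519 CPM in any library.

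In DMSO at 22 h the lines differed in the most abundant member of the axis, while IGFBP2 was second in both and IGF2R and IRS1 lay at similar levels. Per kilobase of exon, IGFBP3 was the highest of the 10 in VCaP at 56.4 CPM per kb (SD 3.45, n = 8). IGFBP2 (21.3) and IGF1R (17.8) followed and overlapped each other between libraries, and then came IRS2 (12.7), IGF2R (4.10) and INSR (3.17), each above the next in every library. IRS1 (0.912) overlapped IGFBP5 (0.665), which overlapped IGFBP4 (0.589), and IGF1 was last at 0.0045 CPM per kb. In LAPC4 the order began with IGFBP5 at 305 CPM per kb (SD 12.6, n = 7), followed by IGFBP2 (9.82), IGF1 (4.93) and IGF2R (3.46), none of which overlapped the next. IGF1R (1.53) overlapped IGFBP3 (1.33), IRS1 (0.91) overlapped INSR (0.763), and IGFBP4 (0.0184) overlapped IRS2 (0.00843) at the bottom.

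**Figure D1:**
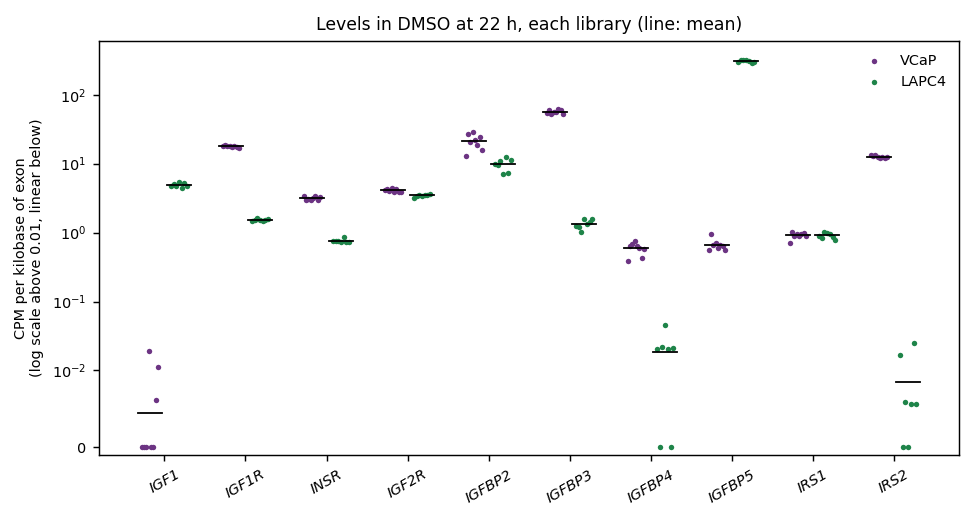
Level of each of the 10 genes in every DMSO library at 22 h, in CPM per kilobase of exon on an axis that is logarithmic above 0.01 and linear below it, with a line at the group mean (VCaP 8 libraries, LAPC4 7). IGFBP3, IGF1R and IRS2 lie higher in VCaP, IGF1 and IGFBP5 lie higher in LAPC4, and IRS1 lies at nearly the same height in both lines.

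A direct test between the lines in DMSO at 22 h called all 10 members, where 87.2% of the 20892 genes tested were called. Of the 10, 8 were higher in VCaP and 2, IGF1 and IGFBP5, were higher in LAPC4. IGF1R was 13.5-fold higher in VCaP (log2 difference 3.76, SE 0.0377), INSR 4.82-fold and IGFBP3 49.2-fold. IGFBP5 differed the other way by -8.63 log2 units (SE 0.0694). IGF2R and IRS1 differed least, by 0.46 and 0.22 log2 units, and the edgeR adjusted p of IRS1 was 0.0187. That call was lost when only control libraries with replicate numbers 1 to 5 were kept (0.14, edgeR adjusted p = 0.216). IGF1 in VCaP and IGFBP4 and IRS2 in LAPC4 rest on few reads, with sums of 5, 6 and 10 over all DMSO libraries at 22 h.

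Every member was called for R1881 in VCaP, but IGF1 passed the filter only through R1881 libraries at 8 h. At 22 h R1881 raised IGF1, IGF1R and IGF2R and lowered INSR, the 4 binding proteins, IRS1 and IRS2. The R1881 and DMSO libraries at 22 h did not overlap for any of the 10. The test called 10 of 10 members at 22 h (9 to 10 over 8 alternatives), beside 77.4% of all genes. At 8 h it again called 10 of 10 members, beside 66.9% of all genes, with 4 higher and 6 lower, and the R1881 and DMSO libraries of 4 members overlapped. The median change at 22 h was -0.86 log2 units over the 10 members and -0.03 over all genes. Since most genes were called, the counts of calls say little about the members. The share of all genes without overlap was not computed, so the overlap counts cannot be set against it. Sizes and directions of the members' changes are given below.

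**Figure D2:**
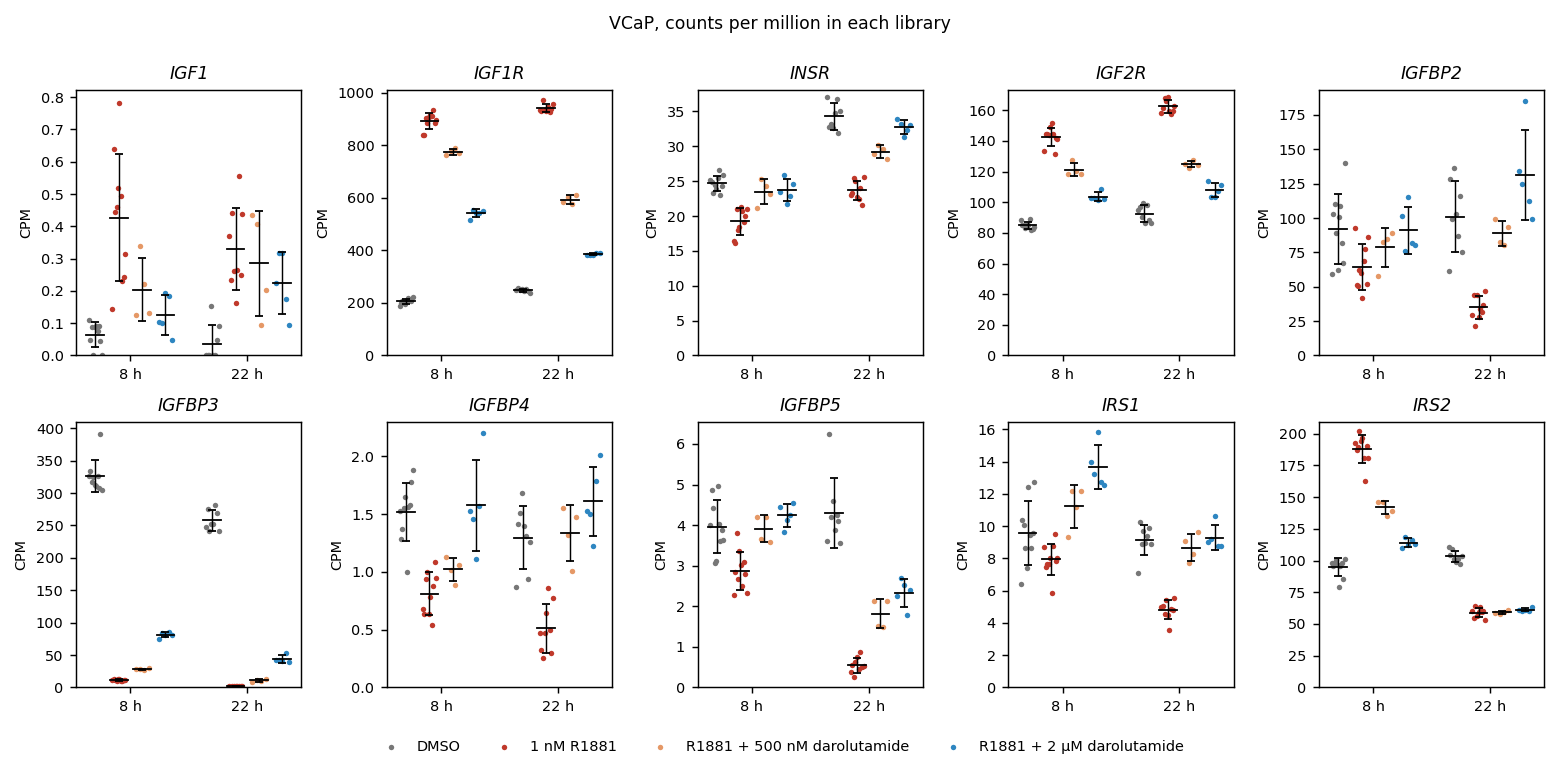
CPM of the 10 genes in each VCaP library by treatment and time (each panel has its own axis from 0), with a bar at the group mean and whiskers of 1 SD (4 to 10 libraries per group). IGF1R and IGF2R are high in R1881 and step down with each darolutamide dose, IGFBP3 is high in DMSO only, and IRS2 is above DMSO in R1881 at 8 h and below it at 22 h.

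Darolutamide given with R1881 shifted most members back towards DMSO in VCaP. At 2 µM, 8 of 10 members were called against R1881 alone at 22 h (6 higher, 2 lower; 66.9% of all genes), and 10 of 10 at 8 h (6 higher, 4 lower; 52.1% of all genes). At 500 nM, the same test called 8 members at 22 h (6 higher, 2 lower; 53% of all genes) and 7 at 8 h (4 higher, 3 lower; 30.6% of all genes). These comparisons share the R1881 libraries with each other and with R1881 against DMSO, so their values stand side by side and are not independent of one another. The 10 called with 2 µM at 8 h include IGF1, which passed the filter only through R1881 libraries at 8 h. Between the doses, 3 members were called at 22 h (20.2% of all genes) and 5 at 8 h (17.6%). Cells with 2 µM still differed from DMSO at 22 h in 6 members, 3 higher and 3 lower, beside 59% of all genes.

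IGF1, the ligand (chr12:102395874-102481744, minus strand, GRCh38), was close to absent in VCaP without androgen. At 22 h, 5 of the 8 DMSO libraries had 0 reads and the 8 together held 5 reads, while each of the 9 R1881 libraries had 3 to 9 reads and together they held 54. Scaled to depth, this is a ratio of 10.1 with an exact 95% interval of 4.09 to 32.5 for counting error only. At 8 h the sums were 84 reads in R1881 and 13 in DMSO, a ratio of 6.67 (3.70 to 13.0). The fitted rise was 3.12 log2 units at 22 h (SE 0.504, edgeR adjusted p = 2.02e-07) and 2.63 at 8 h (SE 0.373, 1.17e-08). With 2 µM darolutamide IGF1 fell by 1.66 log2 units against R1881 at 8 h (SE 0.401, edgeR adjusted p = 0.000394). At 22 h the difference was -0.51 with a 95% interval of -1.26 to 0.24, and it was not called. The libraries with 500 nM at 8 h gave -1.01 (edgeR adjusted p = 0.0524), which passed without replicate 2 (-1.37, 0.0283). Even the highest VCaP library had 14 reads, so these values describe a level near the limit of detection. Only R1881 libraries at 8 h reached the 10 reads that the filter required, so IGF1 was tested through the group where it was highest. The p-values of IGF1 in VCaP are not free of that selection. Most of the exon bases of IGF1, 82.5%, are shared with the antisense transcript HELLPAR, which had 11 to 70 reads per VCaP library, and the strand setting used in counting is not given in the sources used here.

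IGF1R, the signalling receptor (chr15:98648539-98964530, plus strand), had the most reads of the members that rose. DMSO libraries at 22 h lay between 237 and 256 CPM with a median of 249, and R1881 libraries between 926 and 972 with a median of 936. The 4 libraries with 500 nM darolutamide had 584, 602, 575 and 611 CPM, and the 5 with 2 µM had 382, 384, 383, 389 and 389. All 4 groups were therefore separate, in the order DMSO, 2 µM, 500 nM and R1881. R1881 raised IGF1R by 1.92 log2 units (3.79-fold, SE 0.0253, edgeR adjusted p = 3.3e-53), and darolutamide lowered it from there by 0.67 at 500 nM and by 1.29 at 2 µM. The doses differed by -0.62 log2 units (SE 0.0332, edgeR adjusted p = 2.8e-22), and 2 µM remained 0.63 above DMSO.

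At 8 h IGF1R had already risen as far. DMSO libraries had 188 to 221 CPM (median 207) and R1881 libraries 838 to 935 (median 899.6), a rise of 2.11 log2 units (SE 0.0232). The rise was smaller at 22 h than at 8 h, with a difference of -0.19 log2 units (SE 0.0329, edgeR adjusted p = 1.32e-06), while IGF1R in DMSO was 0.27 higher at 22 h than at 8 h. The falls of IGF1R with darolutamide were smaller at 8 h than at 22 h, a difference that was not tested. The 500 nM libraries had 762, 779, 788 and 772 CPM, and those with 2 µM had 517, 556, 541, 544 and 551. The changes against R1881 were -0.20 and -0.72 log2 units, and the groups did not overlap. With replicate number as a block, the change at 500 nM was -0.14 and no longer passed (edgeR adjusted p = 0.0791).

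INSR, the insulin receptor (chr19:7112255-7294414, minus strand), moved the other way and by less. Its DMSO libraries at 22 h had 32.0 to 37.0 CPM (median 34.0) and its R1881 libraries 21.6 to 25.6 (median 23.3), so the groups were separate. INSR fell by 0.54 log2 units at 22 h (SE 0.0462, edgeR adjusted p = 1.39e-15) and by 0.36 at 8 h (SE 0.0434). Libraries with 500 nM darolutamide had 28.9, 30.2, 29.6 and 28.1 CPM at 22 h, and those with 2 µM had 33.9, 33.1, 31.3, 32.4 and 33.0. The 2 µM group lay within the range of DMSO, apart from the library at 31.3, and its difference from DMSO was -0.07 with a 95% interval of -0.17 to 0.04. In DMSO alone INSR was 0.48 log2 units higher at 22 h than at 8 h. IGF1R and INSR thus moved in opposite directions under R1881, and in DMSO the receptor for IGF1 had 249 CPM beside 34.3 for INSR as group means, which are not corrected for length.

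IGF2R, the non-signalling receptor (chr6:159969082-160113507, plus strand), followed IGF1R with smaller steps. At 22 h its DMSO libraries had 86.4 to 99.6 CPM (median 92.7) and its R1881 libraries 158 to 169 (median 162). Libraries with 500 nM darolutamide had 125, 123, 128 and 125 CPM, and those with 2 µM had 114, 104, 103, 108 and 111. Again the 4 groups were separate and in the same order. The rise was 0.81 log2 units (SE 0.0282, edgeR adjusted p = 7.85e-33) at 22 h and 0.75 (SE 0.0259) at 8 h, and these did not pass as different (0.06, 95% interval -0.01 to 0.14). From R1881, 500 nM lowered IGF2R by 0.38 and 2 µM by 0.59 log2 units at 22 h, with a called difference between the doses of -0.21 (SE 0.0383).

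IGFBP3, the main carrier of IGFs in blood (chr7:45912245-45921874, minus strand), had the largest change of the 10. In DMSO at 22 h its libraries had 241 to 282 CPM (median 253), and in R1881 they had 1.26 to 2.71 (median 2.14), which is 27 to 48 reads per library. IGFBP3 fell by 6.98 log2 units (SE 0.0819, edgeR adjusted p = 1.6e-55). At 8 h the corresponding ranges were 305 to 390 CPM (median 321) and 9.88 to 12.6 (median 11.6), a change of -4.84 (SE 0.0622). The fall was larger at 22 h, with a difference of -2.14 log2 units (SE 0.109, edgeR adjusted p = 1.95e-24).

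Darolutamide brought back part of IGFBP3. With 500 nM the 22 h libraries had 8.38, 11.5, 10.3 and 12.5 CPM, and with 2 µM they had 42.3, 42.5, 40.7, 53.6 and 38.7. No 2 of the 4 groups overlapped, at 22 h or at 8 h. Against R1881 the rises at 22 h were 2.39 log2 units for 500 nM (SE 0.112) and 4.42 for 2 µM (SE 0.0899), and the doses differed by 2.03 (SE 0.0928, edgeR adjusted p = 4.6e-25). IGFBP3 with 2 µM was still 2.56 log2 units below DMSO at 22 h. At 8 h libraries with 500 nM had 28.0, 28.1, 27.5 and 29.4 CPM and those with 2 µM had 74.9, 84.2, 81.1, 85.0 and 81.5, and the difference between doses was 1.52 (SE 0.0836).

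One marker on the fibroblast list moved with IGFBP3. LUM, an extracellular matrix proteoglycan, had medians of 26.8 CPM in DMSO, 0.189 in R1881, 0.794 with 500 nM and 4.66 with 2 µM at 22 h. The 5 markers of that list (COL1A1, COL1A2, DCN, LUM and PDGFRA) summed to 25.8 to 29.7 CPM in DMSO at 22 h and to 0.63 to 1.61 in R1881. Without LUM the other 4 summed to 0.914 to 1.67 CPM in DMSO and 0.441 to 1.41 in R1881. Of these, COL1A2 had 0 reads in every VCaP library, DCN at most 7, PDGFRA at most 4 and COL1A1 7 to 40. The endothelial markers PECAM1, VWF and CDH5 summed to 0.413 to 0.840 CPM in DMSO and 2.02 to 3.32 in R1881 at 22 h, and the part of either list in the member values was not tested. In such bulk RNA, fewer cells expressing a gene and less RNA per cell cannot be told apart.

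IGFBP5 (chr2:216672105-216695549, minus strand) binds IGFs and components of the extracellular matrix. In VCaP it was low in DMSO and fell mainly between the time points. At 22 h its DMSO libraries had 3.56 to 6.25 CPM (median 4.15) and its R1881 libraries 0.252 to 0.864 (median 0.535), a change of -2.95 log2 units (SE 0.147, edgeR adjusted p = 1.37e-25). At 8 h the ranges of 3.06 to 4.97 and 2.27 to 3.80 CPM overlapped and the change was -0.47 (SE 0.104, edgeR adjusted p = 8.21e-05). The change at 22 h minus that at 8 h was -2.48 log2 units (SE 0.185, edgeR adjusted p = 1.48e-17). With 500 nM darolutamide the 22 h libraries had 2.13, 1.52, 1.48 and 2.13 CPM, and with 2 µM they had 2.25, 2.69, 2.53, 1.79 and 2.39. All 9 lay above R1881 and below DMSO. The rises from R1881 were 1.72 and 2.07 log2 units, and the doses were not called as different (0.36, 95% interval 0.01 to 0.71, edgeR adjusted p = 0.153).

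IGFBP2 (chr2:216632828-216664436, plus strand) is a binding protein that carries an integrin-binding motif. Its libraries were the most spread of the well-counted members. At 22 h DMSO had 61.1 to 136 CPM (median 101) and R1881 21.3 to 47.2 (median 33.6), which did not overlap. IGFBP2 fell by 1.51 log2 units at 22 h (SE 0.165, edgeR adjusted p = 4.6e-12) and by 0.51 at 8 h (SE 0.147, edgeR adjusted p = 0.0018), where the groups overlapped. The 8 h call was lost with control libraries numbered 1 to 5 only (-0.43, edgeR adjusted p = 0.0681). With 500 nM darolutamide the 22 h libraries had 99.0, 82.2, 80.6 and 93.6 CPM, and with 2 µM they had 134, 124, 185, 113 and 99.4. Every library of either dose lay above every R1881 library, with rises of 1.34 (SE 0.194) and 1.90 (SE 0.18). Against DMSO, 2 µM gave 0.38 (edgeR adjusted p = 0.0659), which passed without replicate 5 (0.46, 0.0417). The 8 h rise with 2 µM (0.50, edgeR adjusted p = 0.0152) was lost without replicate 3 (0.40, 0.080).

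The spread of IGFBP2 between libraries of a group moved with the base composition of the library. For each library, a slope of gene level on transcript GC content was taken over the genes whose mean was above 1 on the log2 CPM scale and whose GC content was known, 86.4% of such genes in VCaP and 85.5% in LAPC4. Of the 28 VCaP libraries with a slope above their group's mean, 27 had IGFBP2 above its group mean, and of the 27 below, 26 had IGFBP2 below. In LAPC4 this held for 28 of 28 and for 26 of 29. Within groups, the SD of IGFBP2 was 0.355 log2 units in VCaP and 0.393 in LAPC4, and after a straight line on the slope it was 0.0813 and 0.082. With the slope as a covariate in the edgeR fit, the SE of IGFBP2 over the 11 VCaP comparisons went from 0.147 to 0.220 down to 0.0343 to 0.0542, and its change under R1881 at 22 h was -1.82. The longest transcript of IGFBP2 holds 57.1% GC, that of IGFBP4 62.6% and that of IRS2 58.7%. The same covariate put IGFBP2 past the threshold for 500 nM at 8 h (0.47), for both comparisons between doses (0.56 at 22 h, 0.14 at 8 h), for 2 µM against DMSO (0.16) and for 22 against 8 h in DMSO (0.32). Between doses at 22 h, not called in the main fit (edgeR adjusted p = 0.0616), it also passed with only the groups compared (0.0116). It passed with the replicate block (0.00706) and without replicate 5 of 2 µM (0.0369) as well, but not under the other alternatives. The slope comes from the same gene levels. Its mean in VCaP at 22 h was -0.048 in DMSO (SD 0.134) and 0.0605 in R1881 (SD 0.121). It may thus carry part of the treatment response, which was not tested. Over the other VCaP members the median ratio of the covariate's SE to the SE without it ranged from 0.646 (IRS1) to 1.02 (IGFBP4), beside 0.233 for IGFBP2.

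**Figure D3:**
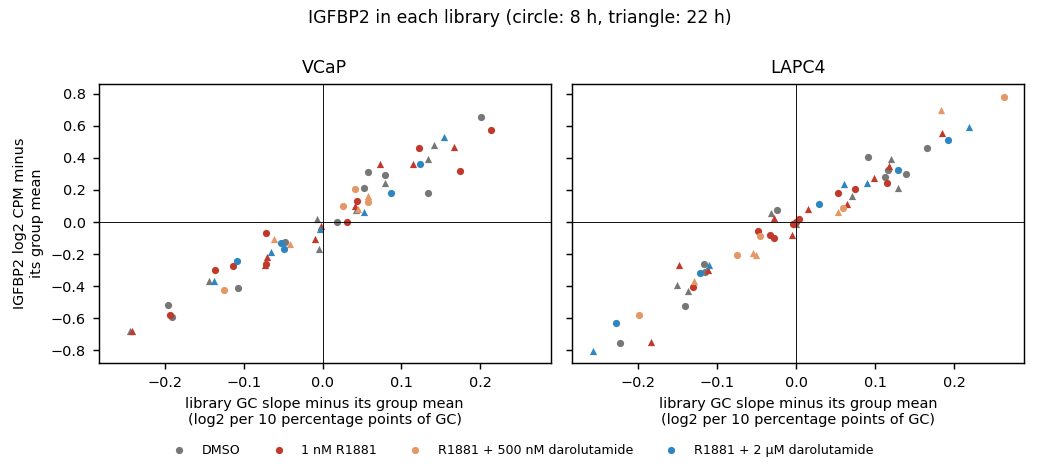
IGFBP2 level in each library minus its group mean (log2 CPM) against that library's GC slope minus its group mean (log2 units per 10 percentage points of GC), for 55 VCaP and 57 LAPC4 libraries, coloured by treatment, with circles for 8 h and triangles for 22 h. Nearly all libraries with a slope above their group's mean also have IGFBP2 above its mean, 27 of 28 in VCaP and 28 of 28 in LAPC4, in every treatment.

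IGFBP4 (chr17:40443450-40457725, plus strand), a binding protein that generally holds IGFs away from their receptor, was scarce in VCaP. Its DMSO libraries had 18 to 32 reads at 22 h (0.866 to 1.68 CPM, median 1.35) and its R1881 libraries 4 to 16 reads (0.252 to 0.863, median 0.475), and the highest R1881 library lay just below the lowest DMSO library. IGFBP4 fell by 1.33 log2 units at 22 h (SE 0.182, edgeR adjusted p = 3.81e-09) and by 0.90 at 8 h (SE 0.147). With 500 nM darolutamide the 22 h libraries had 1.55, 1.32, 1.01 and 1.47 CPM, and with 2 µM they had 1.53, 1.5, 1.22, 1.79 and 2.02, so both doses reached the DMSO range and 2 libraries with 2 µM lay above it. A difference between doses was called at 8 h (0.61, edgeR adjusted p = 0.0354). It was lost when any 1 of 5 libraries was left out, replicates 2, 3 and 4 of 500 nM or 4 and 5 of 2 µM (0.46 to 0.64, edgeR adjusted p = 0.0528 to 0.162). It was also lost with no filter on low counts (edgeR adjusted p = 0.0751), with only the groups compared (0.0509) and with the replicate block (0.154).

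IRS1 (chr2:226731312-226799820, minus strand), an adaptor downstream of both kinase receptors, fell under R1881. At 22 h DMSO libraries had 7.12 to 10.2 CPM (median 9.17) and R1881 libraries 3.58 to 5.54 (median 4.88), a change of -0.91 log2 units (SE 0.0986, edgeR adjusted p = 3.31e-12) with no overlap. The change at 8 h was -0.27 (SE 0.0856, edgeR adjusted p = 0.00492) and the groups overlapped. It did not pass with control libraries 1 to 5 only (-0.15, edgeR adjusted p = 0.239) or with replicate number as a block (-0.26, 0.071). With 500 nM darolutamide the 22 h libraries had 9.06, 7.71, 8.29 and 9.64 CPM, and with 2 µM they had 9.0, 9.17, 10.6, 8.80 and 8.76. These 9 libraries lay within the DMSO range, apart from the one at 10.6, and 2 µM differed from DMSO by 0.02 with a 95% interval of -0.19 to 0.24. At 8 h the 5 libraries with 2 µM had 14.0, 13.2, 15.9, 12.7 and 12.5 CPM, beside 6.40 to 12.7 in DMSO and 5.87 to 9.51 in R1881.

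IRS2 (chr13:109752695-109786583, minus strand), the other adaptor, changed direction between the time points. At 8 h DMSO libraries had 79.3 to 102 CPM (median 97.4) and R1881 libraries 163 to 202 (median 189.9), a rise of 0.98 log2 units (SE 0.0349, edgeR adjusted p = 2.72e-32). At 22 h DMSO had 97.6 to 111 CPM (median 103) and R1881 53.3 to 64.1 (median 59.8), a change of -0.81 (SE 0.0387, edgeR adjusted p = 2.54e-26). The groups were separate at both times. The R1881 effect at 22 h minus that at 8 h was -1.79 (SE 0.0521, edgeR adjusted p = 1.72e-35), the only change of sign among the 10.

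Darolutamide changes of IRS2 were called at 8 h and not at 22 h, and the difference between the times was not tested. At 8 h libraries with 500 nM had 146, 146, 135 and 139 CPM, and those with 2 µM had 110.1, 119, 111.99, 116 and 113. Those groups lay below R1881 and in order of dose, with changes of -0.40 (SE 0.0465) and -0.72 (SE 0.0435). At 22 h the 500 nM libraries had 58.9, 57.8, 59.3 and 60.7 CPM, and the 2 µM libraries had 61.3, 60.3, 60.9, 60.1 and 63.1. All 9 lay within the R1881 range. The differences from R1881 were 0.01 (95% interval -0.09 to 0.10) and 0.05 (-0.04 to 0.14), neither called, and 2 µM was 0.76 below DMSO (SE 0.0460).

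Over the 10 members, 7 had a different R1881 effect at 22 h than at 8 h in VCaP, beside 60.4% of all genes. All 7 differences were negative (IGF1R, INSR, IGFBP2, IGFBP3, IGFBP5, IRS1 and IRS2). That of INSR (-0.18, edgeR adjusted p = 0.0139) was lost with control libraries 1 to 5 (-0.08, 0.470) and with the block (-0.16, 0.0737), and that of IGFBP2 with control libraries 6 and above (-0.68, 0.0563). In DMSO alone, 5 members differed between 22 and 8 h (29.8% of all genes). IGF1R, INSR, IGF2R and IRS2 were higher at 22 h by 0.12 to 0.48 log2 units and IGFBP3 differed by -0.34. The call of IRS2 was lost with only the groups compared, with control libraries 1 to 5 and with 6 and above (edgeR adjusted p = 0.0567, 0.0811 and 0.204), and that of IGF2R with control libraries 6 and above (0.178).

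**Figure D4:**
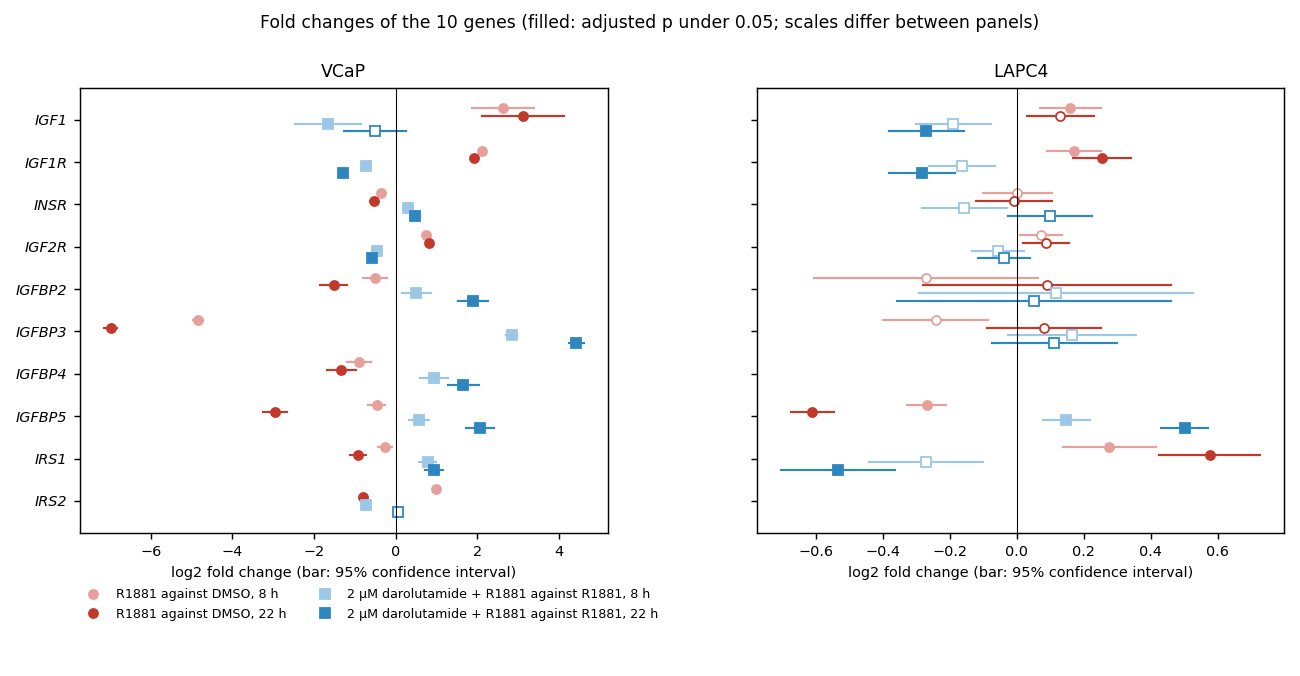
Log2 fold changes with 95% confidence intervals for R1881 against DMSO (circles) and for 2 µM darolutamide plus R1881 against R1881 (squares) at 8 and 22 h, filled where the edgeR adjusted p was under 0.05. The axes differ between the lines, since the LAPC4 changes are far smaller, and IGFBP4 and IRS2 were not tested in LAPC4 and are not drawn there. In both lines the darolutamide change of a called member lies on the other side of 0 from the R1881 change.

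LAPC4 responded in fewer members and by less. R1881 at 22 h called 3 of the 8 members tested, beside 13.3% of all genes, with IGF1R and IRS1 higher and IGFBP5 lower. At 8 h it called 4 (2.64% of all genes), IGF1, IGF1R and IRS1 higher and IGFBP5 lower. With 2 µM darolutamide 4 members were called against R1881 at 22 h (10.5% of all genes) and 1 at 8 h (1.54%). With 500 nM the counts were 4 at 22 h (5.89% of all genes) and 1 at 8 h (0.626%). At 22 h the same members, IGF1, IGF1R and IRS1 lower and IGFBP5 higher, were called at both doses, and IGFBP5 was the member called at 8 h. Between the doses edgeR called 0 members at 22 h (0.258% of all genes) and 0 at 8 h (0.0275%), where 2 and 1 had an unadjusted p under 0.05, and DESeq2 also called 0 at both times. Cells with 2 µM differed from DMSO at 22 h in 0 members by edgeR and by DESeq2 (0.0165% of all genes), with 2 at an unadjusted p under 0.05. That share is 3 genes, and it moved to 90 genes with control libraries 1 to 5, 77 with the GC slope covariate, 63 with the replicate block and 1 without replicate 1 or 5 of 2 µM.

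**Figure D5:**
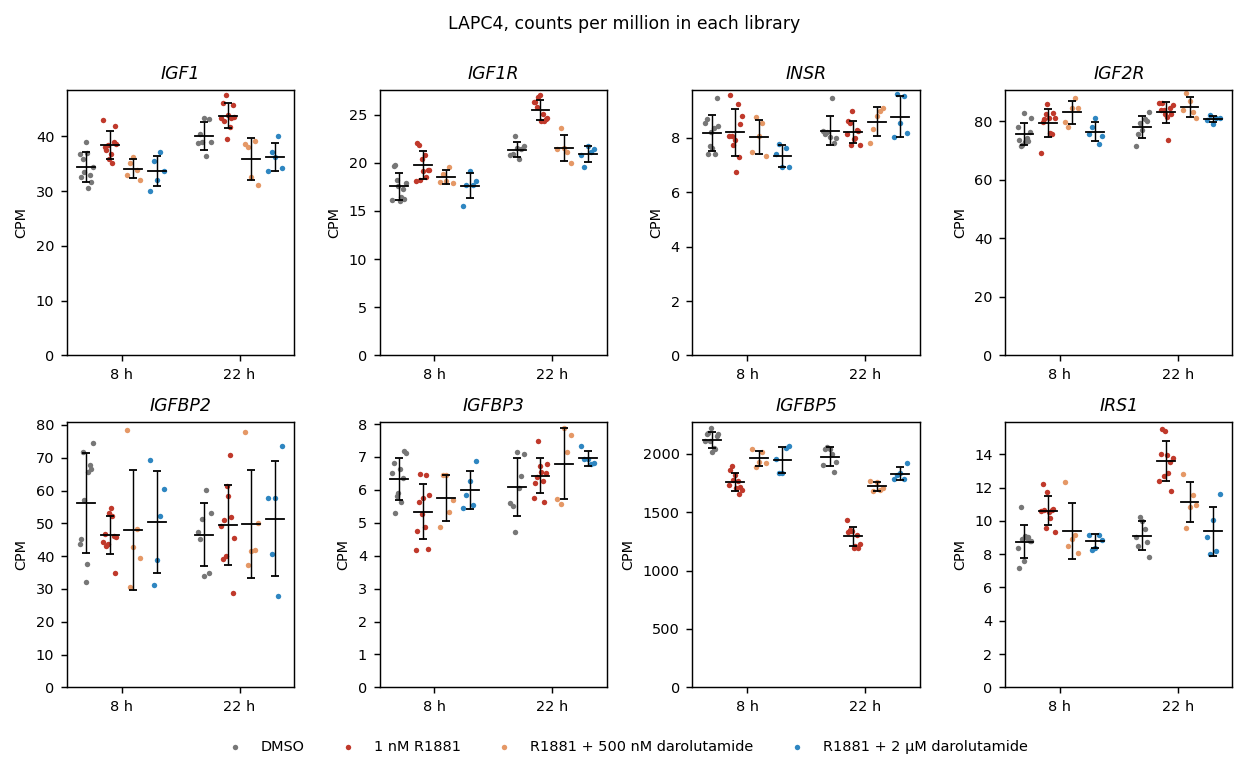
CPM of the 8 tested genes in each LAPC4 library by treatment and time (each panel has its own axis from 0), with a bar at the group mean and whiskers of 1 SD (5 to 10 libraries per group). IGFBP5 is lower in R1881 and IRS1 higher, most clearly at 22 h, while INSR, IGF2R and IGFBP3 overlap between R1881 and DMSO at both times and IGFBP2 is widely spread.

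IGFBP5 was the most abundant of the 10 in LAPC4 and had the clearest response there. Its DMSO libraries at 22 h had 1843 to 2057 CPM (median 1995) and its R1881 libraries 1192 to 1434 (median 1316), with no overlap. IGFBP5 fell by 0.61 log2 units at 22 h (SE 0.0315, edgeR adjusted p = 5.43e-23) and by 0.27 at 8 h (SE 0.0289, 2.68e-10). The fall was larger at 22 h, with a difference of -0.34 (SE 0.0429, edgeR adjusted p = 7.32e-08), the 1 such difference called among the 8 members (3.21% of all genes). With 500 nM darolutamide the 22 h libraries had 1765, 1676, 1760.4, 1692 and 1709.6 CPM, and with 2 µM they had 1781, 1819.8, 1833, 1784 and 1917. Each lay above every R1881 library, with rises of 0.41 and 0.50 log2 units. At 8 h the rises were 0.16 for 500 nM (edgeR adjusted p = 0.0116) and 0.15 for 2 µM (0.0101). The first was lost without replicate 1 or 4, and the second without replicate 4 or 5 (0.12 to 0.15, edgeR adjusted p = 0.0696 to 0.0906). Both were also lost with only the groups compared (edgeR adjusted p = 0.0543 for 500 nM and 0.174 for 2 µM). The same held with control libraries 1 to 5 (0.202 and 0.118) and with the replicate block. LUM moved with IGFBP5 here at 22 h, with 3.41 to 4.66 CPM in DMSO, 1.63 to 2.47 in R1881 and medians of 2.98 with 500 nM and 3.73 with 2 µM. The other 4 fibroblast markers summed to 1.00 to 1.84 CPM in DMSO and 0.742 to 1.45 in R1881, and the endothelial markers had medians of 1.13 and 2.18. Their part in the values of IGFBP5 was not tested.

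IRS1 rose in LAPC4 where it fell in VCaP. The 22 h DMSO libraries had 7.84 to 10.2 CPM (median 9.05) and the R1881 libraries 11.8 to 15.5 (median 13.6), a rise of 0.58 log2 units (SE 0.0757, edgeR adjusted p = 2.25e-08) without overlap. With 500 nM darolutamide the libraries had 12.8, 9.54, 10.8, 11.6 and 11 CPM, and with 2 µM they had 9.02, 8.04, 10.0, 8.18 and 11.6. Against R1881 the changes were -0.29 at 500 nM (edgeR adjusted p = 0.0245) and -0.54 at 2 µM (edgeR adjusted p = 2.6e-06). The first was lost without replicate 2, 3 or 5 (-0.28 to -0.24, edgeR adjusted p = 0.0632 to 0.138). It was also lost with no filter on low counts (edgeR adjusted p = 0.0647) and with the replicate block (0.111). Control libraries 1 to 5 only (0.0633) or 6 and above only (0.149) lost it as well. At 8 h IRS1 rose by 0.28 (edgeR adjusted p = 0.0114), a call lost with control libraries numbered 1 to 5 only (0.35, 0.146) or 6 and above only (0.20, 0.594). The replicate block lost it too (0.29, edgeR adjusted p = 0.0762).

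IGF1R rose in LAPC4 as in VCaP, from a lower level. DMSO libraries at 22 h had 20.4 to 22.8 CPM (median 21.4) and R1881 libraries 24.3 to 27.0 (median 25.4). The rise of 0.25 log2 units (SE 0.0437, edgeR adjusted p = 9.63e-06) was lost with control libraries numbered 6 and above only (0.19, 0.0879). Libraries with 500 nM darolutamide had 21.4, 23.6, 21.6, 21.1 and 19.9 CPM, and those with 2 µM had 20.8, 19.6, 21.7, 21.1 and 21.5. Both doses were below every R1881 library and overlapped DMSO. At 8 h the R1881 and DMSO libraries of IGF1R overlapped. The 8 h call was lost with only the groups compared (0.18, edgeR adjusted p = 0.0643) and with control libraries 1 to 5 (0.14, 0.502).

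IGF1 had 466 to 1012 reads per library in LAPC4. At 22 h DMSO libraries had 36.4 to 43.4 CPM (median 39.0) and R1881 libraries 39.5 to 47.6 (median 43.4), and the difference of 0.13 was not called (edgeR adjusted p = 0.076). It passed with only the groups compared (0.0354), with the replicate block (0.0275) and with the GC slope covariate (0.00103). Libraries with 500 nM darolutamide had 38.5, 38.1, 32.6, 39.1 and 31.0 CPM, and those with 2 µM had 33.6, 37.1, 36.2, 40.1 and 34.3. Against R1881, IGF1 fell by 0.29 (edgeR adjusted p = 0.000188) and by 0.27 (0.000295). The 8 h rise under R1881 (0.16, edgeR adjusted p = 0.0372) did not pass under 5 of the alternatives (0.12 to 0.19, edgeR adjusted p = 0.0675 to 0.734). HELLPAR, on the other strand, had 29 to 64 reads per LAPC4 library.

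The other members tested showed no called R1881 change in LAPC4 at either time. At 22 h INSR gave -0.01 log2 units (95% interval -0.12 to 0.11), IGF2R 0.09 (0.02 to 0.16), IGFBP2 0.09 (-0.28 to 0.46) and IGFBP3 0.08 (-0.09 to 0.25). Under alternatives, IGF2R passed at 22 h with control libraries 1 to 5 (0.14, edgeR adjusted p = 0.0462) and with the GC slope covariate (0.09, 0.0317). At 8 h IGFBP2 (-0.12, edgeR adjusted p = 0.0259) and IGFBP3 (-0.25, 0.039) passed with that covariate. IGFBP3, the member that fell most in VCaP, had 4.71 to 7.16 CPM in DMSO and 5.64 to 7.49 in R1881. IGFBP4 had 0 to 4 reads and IRS2 0 to 5 reads in each LAPC4 library, and neither was tested within the line. At 22 h IRS2 had 26 reads over 10 R1881 libraries and 10 over 7 DMSO libraries, and IGFBP4 had 14 and 6. In DMSO, 3 members differed between 22 and 8 h (22.1% of all genes), with IGF1 and IGF1R higher at 22 h by 0.22 and 0.29 and IGFBP5 differing by -0.10. The call of IGF1 was lost with control libraries 1 to 5 (edgeR adjusted p = 0.115) and that of IGFBP5 with only the groups compared (0.0514).

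The R1881 effect at 22 h differed between the lines for 10 of 10 members, beside 58.6% of all genes, with 3 differences positive and 7 negative. IGF1R rose 1.70 log2 units more in VCaP (SE 0.0464, edgeR adjusted p = 1.4e-58) and IGF2R 0.76 more. The difference for IGFBP3 was -7.03 (SE 0.122), for IGFBP5 -2.30 (SE 0.138) and for IRS1, whose changes had opposite signs, -1.45 (SE 0.121, edgeR adjusted p = 3.29e-20). Those of IGFBP4 (-2.03) and IRS2 (-1.70) rest on fewer than 6 reads per LAPC4 library and were lost under 3 and 1 of the alternatives.

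A further 33 genes of the pathway were listed by role, and 24 were tested in VCaP and 23 in LAPC4. In VCaP R1881 at 22 h called 15 of the 24, 4 higher and 11 lower, beside 77.4% of all genes, and 2 µM darolutamide against R1881 called 19, 9 higher and 10 lower, beside 66.9% of all genes. By role, R1881 lowered 2 of 3 other ligands and carriers, 2 of 3 genes of binding-protein proteolysis, 3 of 5 signalling brakes and 2 of 4 outputs, and raised 1 of the brakes and 1 of the outputs. Of 7 adaptors it raised 1 and lowered 2, and of 2 mRNA-binding proteins it raised 1. The 4 with the largest called change all fell. HTRA1, a secreted serine protease that can cut binding proteins, fell by 2.53 log2 units (SE 0.109, edgeR adjusted p = 2.45e-28) and rose by 2.20 with 2 µM darolutamide. GRB10, an adaptor that restrains insulin and IGF1 receptors, fell by 1.93 (SE 0.0438) and rose by 0.48. IGFBP1 (-1.43, SE 0.358) and SOCS1, a suppressor of cytokine signalling (-1.41, SE 0.298), fell as well, and darolutamide gave -0.17 and -0.04, neither called.

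In LAPC4 R1881 at 22 h called 8 of the 23 other pathway genes, 4 in each direction (13.3% of all genes), and 2 µM darolutamide called 4, 2 in each direction (10.5% of all genes). IRS4, an adaptor of the IRS family, rose by 1.13 log2 units (SE 0.268, edgeR adjusted p = 0.00152), and GRB14, a brake related to GRB10, fell by 0.72 (SE 0.0778) and rose by 0.62 with darolutamide. GAB1, a docking adaptor, fell by 0.26 and rose by 0.17, and STC2, an inhibitor of a binding-protein protease, rose by 0.21 and fell by 0.23. The value for IRS4 with darolutamide was -0.77 (edgeR adjusted p = 0.0783).

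Some genes had nearly the same pattern over the 8 VCaP groups. Likeness was the root mean square difference of centred group means of log2 CPM over the 8 groups, among 13967 genes, for members whose means spanned more than 1 log2 unit. For IGFBP3, which spanned 7.27, SHH (0.184), GPR85 (0.206) and LUM (0.416) were nearest. For IGFBP5, they were FRRS1L (0.147), CD109 (0.156) and ANTXR1 (0.166), and for IGFBP2 HUNK (0.121), PCOLCE2 (0.130) and NRXN2 (0.139). IGFBP4 was nearest to TUB (0.115), MIR4697HG (0.126) and NLN (0.132). IRS1 lay nearest to BMP1 (0.138), FBXO4 (0.156) and VASH1 (0.159), and RORA (0.127) and PHLDB2 (0.146) were among the 3 nearest to IRS2. CYTH1 (0.119) was among the 3 nearest to IGF1R. For IGF1, at under 15 reads per library, PPARGC1B (0.135), RP11-297L17.6 (0.136) and PAQR4 (0.136) were nearest. This log2 CPM had a prior count of 2 added, which narrows differences at so few reads. IGF1 spanned 1.95 log2 units on that scale, beside a fitted rise of 3.12 under R1881 at 22 h. Its nearest genes thus match narrowed values. INSR and IGF2R spanned too little to be ranked.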

How the data were processed

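RNA-seq was measured in 112 libraries. The values used are counts of reads per gene as deposited by the authors, in 1 table of both lines, made from 50-base single-end reads of stranded polyA libraries. The submitters' processing notes name bcl2fastq 2.17, STAR, GRCh38 (hg38), featureCounts (Subread) and DESeq2. The annotation, strand setting and treatment of multiply mapped reads are not given in the sources used here.

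Groups came from the sample labels. A gene was tested where 4 or more libraries of a line had 10 or more reads, with edgeR 4.0.16 (TMM, quasi-likelihood, R 4.3.3), all 8 groups of a line in 1 fit, or both lines together for the comparisons between them. P-values were adjusted by Benjamini-Hochberg over all genes tested, with 0.05 as threshold. The SE was taken as the size of the log2 change over the root of the F statistic. The code was tested on simulated data. CPM per kb used union exon lengths of GENCODE 44, from which the GRCh38 positions of the genes also come. Library totals of 12188455 to 25201678 reads limit precision for IGF1 in VCaP and for IGFBP4 and IRS2 in LAPC4. Counting intervals cover counting error only.

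The 10 members and the list of 33 other pathway genes were chosen with earlier results of these data known. The text names every member, and per line the 4 called other pathway genes with the largest absolute change for R1881 against DMSO at 22 h, and the 3 genes nearest in pattern to each member, of which some are not reported here. Alternatives were DESeq2 1.42.0, other filters, fits with only the groups compared, subsets of control libraries, a replicate block, a covariate for library GC slope, and leaving out each darolutamide library.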

Additional observations from a re-analysis of the deposited data

Results flagged for a closer look

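Of 144 groups of 4 to 10 libraries tested for 1 library far from the rest, 13 had one, where chance flags about 1 in 20. In VCaP these were IGFBP3 at 390 CPM in replicate 9 of DMSO at 8 h (others 305 to 335) and at 53.6 in replicate 4 of 2 µM at 22 h (38.7 to 42.5), IGFBP5 at 6.25 in replicate 2 of DMSO at 22 h (3.56 to 4.58), and IGFBP2 at 57.6 in replicate 1 of 500 nM at 8 h (82.9 to 89.2). IGF2R stood at 109 in replicate 4 of 2 µM at 8 h (101 to 103), and IRS2 at 163 in replicate 8 of R1881 at 8 h (180 to 202). IRS1 stood apart in 4 groups, at 7.12 in replicate 1 of DMSO at 22 h (8.88 to 10.2), at 10.6 in replicate 3 of 2 µM at 22 h (8.76 to 9.17), and in replicate 6 of R1881 at 3.58 for 22 h (4.51 to 5.54) and 5.87 for 8 h (7.44 to 9.51). In LAPC4 these were INSR at 9.45 in replicate 5 of DMSO at 22 h (7.82 to 8.25), IGF2R at 73.6 in replicate 7 of R1881 at 22 h (81.3 to 86.3) and IGFBP2 at 34.9 in replicate 9 of R1881 at 8 h (43.1 to 54.7).

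The R1881 effect in VCaP differed between 22 and 8 h by a test of the difference itself for IGF1R (-0.19), INSR (-0.18), IGFBP2 (-1.0), IGFBP3 (-2.14), IGFBP5 (-2.48), IRS1 (-0.65) and IRS2 (-1.79), and in LAPC4 for IGFBP5 (-0.34). That effect at 22 h also differed between the lines, as VCaP minus LAPC4, for IGF1 (3.04), IGF1R (1.70), INSR (-0.49), IGF2R (0.76), IGFBP2 (-1.56), IGFBP3 (-7.03), IGFBP4 (-2.03), IGFBP5 (-2.30), IRS1 (-1.45) and IRS2 (-1.70).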

How the results depend on the processing

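Over 218 member results, 2411 alternative values were computed, of which 2316 kept direction and side of the threshold, 57 lost and 38 gained a call, and no called value changed sign. No call changed for 176 results. Among values not called, 72 had the other sign, the largest of them 0.21 log2 units in size. Where counts of members called moved by over 1.5 times, the cause was not tested. With only the groups compared, the count went from 3 to 5 for 2 µM against 500 nM at 22 h in VCaP, from 4 to 2 for R1881 at 8 h in LAPC4, and from 1 to 0 for 500 nM at 8 h in LAPC4. With control libraries numbered 6 and above it went from 5 to 3 for DMSO over time in VCaP and from 4 to 2 for R1881 at 8 h in LAPC4. With those numbered 1 to 5 it was 1 for R1881 at 8 h, 0 for 2 µM and 0 for 500 nM against R1881 at 8 h, and 1 rather than 0 for 2 µM against DMSO, all in LAPC4. DESeq2 called 4 rather than 1 for 2 µM at 8 h in LAPC4. The GC slope covariate gave 5 for 2 µM against 500 nM at 22 h in VCaP, and in LAPC4 5 for R1881 at 22 h, 4 for 2 µM and 2 for 500 nM at 8 h, and 2 for the R1881 effect over time. Of the other pathway genes in LAPC4, R1881 at 22 h called 5 with no filter and 4 and 1 with controls 1 to 5 and 6 and above, beside 8, and 2 µM called 7 with the covariate, beside 4. Leaving out 1 darolutamide library gave 0 to 2 members for 2 µM at 8 h in LAPC4 (0 without replicate 5, 2 without replicate 3) and 0 to 1 for 500 nM (0 without replicate 1 or 4).

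Whether shared replicate numbers pair the libraries was not settled. In every comparison at least 1 pair had a correlation of deviations at or below 0.1, which cannot exclude pairing. Means over pairs ran from -0.259 (VCaP, 500 nM against R1881, 8 h) to 0.358 (LAPC4, 2 µM against R1881, 22 h). For R1881 against DMSO at 22 h in LAPC4 the mean over 7 pairs was 0.253, and 4 libraries correlated best with their own number. For R1881 at 22 h in VCaP the mean over 8 pairs was 0.0981, and 2 libraries correlated best with their own number. With replicate number as a block, LAPC4 had 2 members called for R1881 at 8 h, 0 for 2 µM and 0 for 500 nM at 8 h.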
